A study of Mus musculus with 24 samples.

Results

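The transcripts described here are those of the interleukin 6 (IL-6) cytokine family that were measured in mouse bone marrow-derived dendritic cells (BMDC) after lipopolysaccharide (LPS): the ligand genes Il6, Lif and Osm, the ligand-binding receptor gene Il6ra and the shared signalling receptor gene Il6st. They were chosen by gene name, with earlier results of these data known, and all 5 were found among the 54309 gene models of the deposited count table. All 5 passed the low-count filter in every comparison. Bone marrow was cultured for 7 days in GM-CSF medium, which yields dendritic cells mixed with other myeloid cells, and every culture received LPS at 100 ug/mL for 3 h, per the labels, and then cycloheximide, which halts ribosomes on mRNA, at 100 ug/mL. The series sets LCH cultures, whose mice carry BRAF-V600E, the kinase mutation of Langerhans cell histiocytosis, against WT cultures. Its question is how the mutant kinase changes transcripts and their translation after LPS.

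The groups were LCH cells given a BRAF-V600E inhibitor for 1 h before LPS, LCH cells without inhibitor, WT cells with inhibitor and WT cells without inhibitor. Each was sequenced as total RNA and as polysome RNA, taken from 500 uL of pooled gradient fractions with more than 2 polysomes, which gave 8 groups of 3 libraries. The labels name the same biological replicates with and without inhibitor, and the table's columns carry pool letters, E, F and G for LCH and A, BD and C for WT. The third LCH pool is named G in total RNA but GH in polysome RNA. GH was taken as the counterpart of G and is called G below, which no label states. No label used here gives the age of the mice, the promoter or cell type that drives the mutant allele, or the name of the inhibitor. The counts do not read the allele itself, so the genotype labels could not be checked from them.

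IL-6, LIF and oncostatin M (OSM) are secreted proteins that signal through gp130, the product of Il6st, paired with a second receptor chain for the ligand: the IL-6 receptor encoded by Il6ra, the LIF receptor encoded by Lifr or the OSM receptor encoded by Osmr. Receptor engagement activates JAK kinases and the transcription factor STAT3, which in turn induces feedback inhibitors such as SOCS3. Dendritic cells and macrophages make IL-6 as part of the response to LPS, and LIF and OSM are made by many activated myeloid cells.

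In the main tests of total RNA below, Lif passed for genotype and for inhibitor in LCH cells, and Il6 passed for neither. The 250 bases before the annotated start of both genes are printed. They are from RefSeq on GRCm38.p6, which held a promoter for 4 of the 5 genes. The Osm promoter is not analysed here. Capitals mark matches on either strand to 5 motifs: AP-1 (TGANTCA), NF-kB (GGGNNTTTC), ETS (CGGAAGT), C/EBP (TTNNGCAA) and STAT (TTCNNNGAA). The Lif sequence lies on chr11:4257318-4257567 and the Il6 sequence on chr5:30012864-30013113, both on the plus strand.
Lif: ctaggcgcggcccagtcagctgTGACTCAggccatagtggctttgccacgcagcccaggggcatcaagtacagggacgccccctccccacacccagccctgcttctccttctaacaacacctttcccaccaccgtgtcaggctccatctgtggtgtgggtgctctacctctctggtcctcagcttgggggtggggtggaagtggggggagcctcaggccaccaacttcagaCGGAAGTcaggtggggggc
Il6: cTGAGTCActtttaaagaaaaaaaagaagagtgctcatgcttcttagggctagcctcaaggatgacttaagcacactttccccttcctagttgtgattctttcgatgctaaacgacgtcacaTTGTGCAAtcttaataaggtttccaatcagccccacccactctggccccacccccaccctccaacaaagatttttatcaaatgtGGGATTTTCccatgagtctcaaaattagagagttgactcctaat
The Lif window held an AP-1 match, TGACTCA, and an ETS match, CGGAAGT. The Il6 window held an AP-1 match, TGAGTCA, a C/EBP match, TTGTGCAA, and an NF-kB match, GGGATTTTC. No 2 matches overlapped, and neither window held a STAT match. Among 32851 mouse windows of the same length, 6.75% held the AP-1 letters, 4.92% the ETS letters, 9.56% the C/EBP letters, 3.72% the NF-kB letters and 7.02% the STAT letters. The Il6ra and Il6st windows held none of the 5 motifs.

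Total RNA libraries of LCH held 19046640 to 39792221 counts and those of WT 19062502 to 20484170. All LCH total RNA libraries had less mitochondrial mRNA than all WT ones, 1.75 to 3.74% of counts in LCH and 6.22 to 11.6% in WT, which moves with every genotype difference below and whose part in them was not tested. All 12 tested dendritic cell markers were measured in total RNA, with summed levels of 12750 to 15770 CPM (counts scaled to library size after TMM, the trimmed mean of M values) in LCH untreated and 9624 to 14940 CPM in WT untreated libraries; 3 of them were higher and 3 lower in LCH untreated. Marker counts are to be read against the 29.7% of all genes called for this comparison. The neutrophil markers summed to 647.8 to 861.7 CPM in LCH untreated and 1721 to 3758 CPM in WT untreated libraries, and 10 of 13 were lower in LCH at the threshold defined below. Of 9 eosinophil markers 7 were lower and 1 higher, and of 8 measured mast cell and basophil markers 5 were lower and 1 higher. Of 13 macrophage and monocyte markers 3 were higher and 3 lower, of 3 measured lymphocyte markers 1 was lower, and of 5 measured stromal and endothelial markers 1 was higher and 1 lower. The part of these markers in the results below was not tested. Libraries of LCH pool G stood apart, with a count for at least 27571 gene models. The other LCH and WT pools had at most 18406 in total RNA, and the other LCH pools at most 13505 in polysome RNA. Results of Il6, Lif, Osm, Il6ra and Il6st are therefore also given without pool G where a call changed. The calls of all other named genes were not examined without pool G. In bulk RNA, more cells of a type and more RNA per cell cannot be told apart.

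Lif, which encodes a ligand of the LIF receptor, was higher in untreated LCH cells than in untreated WT cells, and lower with inhibitor in LCH cells, where its values overlapped with those of WT cells. Lif stood at 27.4, 37.8 and 22 CPM in LCH cells with inhibitor (pools E, F and G), 121, 170 and 176 CPM in LCH cells without it, 38.5, 31.4 and 36.8 CPM in WT cells with inhibitor (pools A, BD and C) and 38.1, 29.0 and 32 CPM in WT cells without it. The 3 untreated LCH libraries were the highest of the 12 and did not overlap with any other group, while the other 9 libraries overlapped across groups. For LCH untreated against WT untreated the log2 fold change was 2.23 (SE 0.21, adjusted p = 3.8e-05), by edgeR's quasi-likelihood test with Benjamini-Hochberg adjustment over all 13375 genes tested, where a gene under 0.05 is called here. SE is an approximate standard error, computed as the absolute log2 fold change over the square root of the F statistic of this test. With inhibitor in LCH cells Lif fell by 2.42 (SE 0.21, adjusted p = 7.2e-04), and without pool G it fell by 2.15 (adjusted p = 0.0103).

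Osm, which encodes the ligand oncostatin M, changed in the same directions as Lif. It stood at 23.0, 28.8 and 18.8 CPM in LCH cells with inhibitor, 65.9, 87.5 and 76.5 CPM in LCH cells without it, 17.8, 32.3 and 25.9 CPM in WT cells with inhibitor and 21.9, 32 and 31.1 CPM in WT cells without it. Again the 3 untreated LCH libraries lay above all 9 others, which overlapped. The log2 fold change was 1.44 for LCH untreated against WT untreated (SE 0.23, adjusted p = 0.0011 by edgeR) and -1.70 for LCH inhibitor against LCH untreated (SE 0.23, adjusted p = 0.0071). The inhibitor call of Osm was lost without pool G (-1.56, adjusted p = 0.075) and without the untreated library of pool F (-1.59, adjusted p = 0.0503), and was kept with the pool as a block (-1.71, adjusted p = 2.1e-08).

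Il6, the cytokine the family is named for, did not pass the test for genotype. It stood at 761, 865 and 1004 CPM in LCH cells with inhibitor, 902, 952 and 1176 CPM in LCH cells without it, 754, 1028 and 799 CPM in WT cells with inhibitor and 937, 1311 and 1147 CPM in WT cells without it. All 4 groups overlapped. The log2 fold change was -0.16 for LCH untreated against WT untreated (SE 0.17, adjusted p = 0.50 by edgeR) and -0.20 for LCH inhibitor against LCH untreated (SE 0.17, adjusted p = 0.78). Within every pool, however, the library with inhibitor was lower, by 0.24, 0.14 and 0.23 on the log2 CPM scale in LCH pools E, F and G and by 0.31, 0.35 and 0.52 in WT pools A, BD and C.

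Il6ra, which encodes the IL-6-binding receptor chain, was higher in untreated LCH cells. It was at 4.78, 3.99 and 3.82 CPM in LCH cells with inhibitor, 6.77, 6.44 and 4.73 CPM in LCH cells without it, 3.54, 5.74 and 4.56 CPM in WT cells with inhibitor and 2.58, 3.86 and 3.39 CPM in WT cells without it. The untreated groups did not overlap, but these values rest on 52 to 148 counts a library. The log2 fold change for LCH untreated against WT untreated was 0.87 (SE 0.23, adjusted p = 0.014 by edgeR), and the call was lost without the LCH untreated library of pool E (0.76, adjusted p = 0.068) or F (0.80, adjusted p = 0.057), or without the WT untreated library of pool A (0.72, adjusted p = 0.054) or C (0.89, adjusted p = 0.052), and on the deposited regularised log (rlog) values (0.48, adjusted p = 0.069). With inhibitor in LCH cells the log2 fold change was -0.51 (SE 0.22, adjusted p = 0.44).

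Il6st, which encodes the signalling chain gp130, was highest in LCH cells with inhibitor, at 81.6, 76.0 and 59.8 CPM. It was at 61.6, 59.5 and 50.7 CPM in LCH cells without inhibitor, 55.2, 37.0 and 37.1 CPM in WT cells with inhibitor and 51.8, 39.7 and 33.3 CPM in WT cells without it. LCH cells with inhibitor lay above both WT groups, while the untreated groups overlapped. The log2 fold change was 0.80 for LCH inhibitor against WT untreated (SE 0.20, adjusted p = 0.013 by edgeR) and 0.75 for LCH inhibitor against WT inhibitor (SE 0.20, adjusted p = 0.019). Between untreated LCH and WT cells it was 0.46 (SE 0.20, adjusted p = 0.097), which was called without the low-count filter (0.44, adjusted p = 0.0084), on the deposited rlog values (0.73, adjusted p = 0.031) and without WT pool A (0.64, adjusted p = 0.041), and with inhibitor in LCH cells 0.34 (SE 0.19, adjusted p = 0.62). The call against untreated WT was lost without the LCH inhibitor library of pool E (0.70) or F (0.76) or the WT untreated library of pool BD (0.75) or C (0.66), and that against inhibitor-treated WT without the LCH inhibitor library of E (0.65) or F (0.71) or the WT inhibitor library of BD (0.65) or C (0.65).

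**Figure D1:**
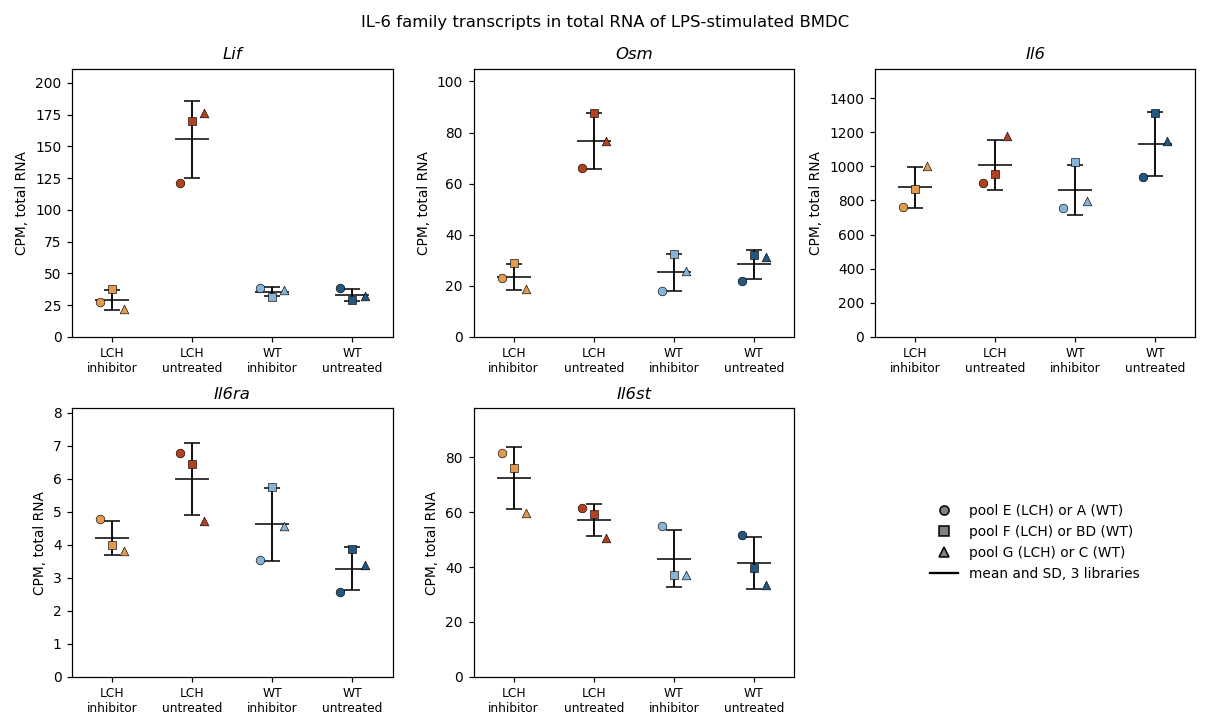
Levels of the 5 genes in each total RNA library (CPM, linear axis from 0), with LCH inhibitor, LCH untreated, WT inhibitor and WT untreated from left to right; symbols are pools and bars are the mean and SD of 3 libraries. The 3 LCH untreated libraries of Lif (121 to 176 CPM) and Osm (65.9 to 87.5 CPM) lie above all other libraries, while the groups of Il6 overlap.

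The group means give the order of each gene. Lif averaged 29.1 ± 8.0 CPM in LCH inhibitor, 156 ± 30.2 CPM in LCH untreated, 35.6 ± 3.70 CPM in WT inhibitor and 33.0 ± 4.64 CPM in WT untreated libraries (SD, n = 3 each), and Osm 23.5 ± 5.05, 76.7 ± 10.8, 25.4 ± 7.26 and 28.3 ± 5.59 CPM in the same order of groups. For both genes LCH untreated was first, and the next 3 groups lay within their spread of each other. Il6 averaged 877 ± 122 CPM in LCH inhibitor, 1010 ± 146 CPM in LCH untreated, 860 ± 147 CPM in WT inhibitor and 1132 ± 188 CPM in WT untreated libraries, so that its highest group was WT untreated and the ranges of neighbouring groups overlapped. Il6ra ran from LCH untreated (5.98 ± 1.10 CPM) through WT inhibitor (4.61 ± 1.10 CPM) and LCH inhibitor (4.20 ± 0.51 CPM), which lay within their spread, to WT untreated (3.28 ± 0.65 CPM). Il6st ran from LCH inhibitor (72.5 ± 11.3 CPM) through LCH untreated (57.3 ± 5.79 CPM) to WT inhibitor (43.1 ± 10.5 CPM) and WT untreated (41.6 ± 9.39 CPM), of which the last pair lay within their spread.

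The number of members called is set beside the share of all genes called in the same comparison. The members were chosen with earlier results of these data known, so this is a description only. For LCH untreated against WT untreated 3 of the 5 genes were called, all higher, where 29.7% of 13375 genes were called. For LCH inhibitor against LCH untreated 2 of the 5 were called, both lower, where 0.74% of all genes were called. No member was called for WT inhibitor against WT untreated by edgeR, where 0.71% of genes were called and Il6 alone of the 5 had an unadjusted p under 0.05 (0.042); DESeq2 also called none. For LCH inhibitor against WT inhibitor 1 of the 5 was called, Il6st, against 20.3% of all genes, and for LCH inhibitor against WT untreated again Il6st alone, against 25.6%.

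In WT cells, which lack the mutant kinase, the inhibitor's log2 fold change was 0.11 for Lif (SE 0.20, adjusted p = 0.87 by edgeR) and -0.16 for Osm (SE 0.23, adjusted p = 0.82). The difference between the genotypes' inhibitor effects was tested as an interaction. It was -2.53 for Lif (SE 0.28, adjusted p = 0.0042), the 1 member of 5 called where 0.404% of all genes were called, and -1.54 for Osm (SE 0.32, adjusted p = 0.082). The Osm interaction was called under 4 of 18 alternatives. Among these were DESeq2 (-1.54, adjusted p = 5.5e-04), edgeR without the low-count filter (-1.515, adjusted p = 2.0e-11) and edgeR without the WT inhibitor library of pool A (-1.74, adjusted p = 0.0495). LCH cells with inhibitor and WT cells without it differed by -0.19 for Lif (SE 0.20, adjusted p = 0.53) and -0.27 for Osm (SE 0.23, adjusted p = 0.42) on the log2 scale, which does not show that they were equal. These comparisons share libraries, so their values are not independent of each other.

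**Figure D2:**
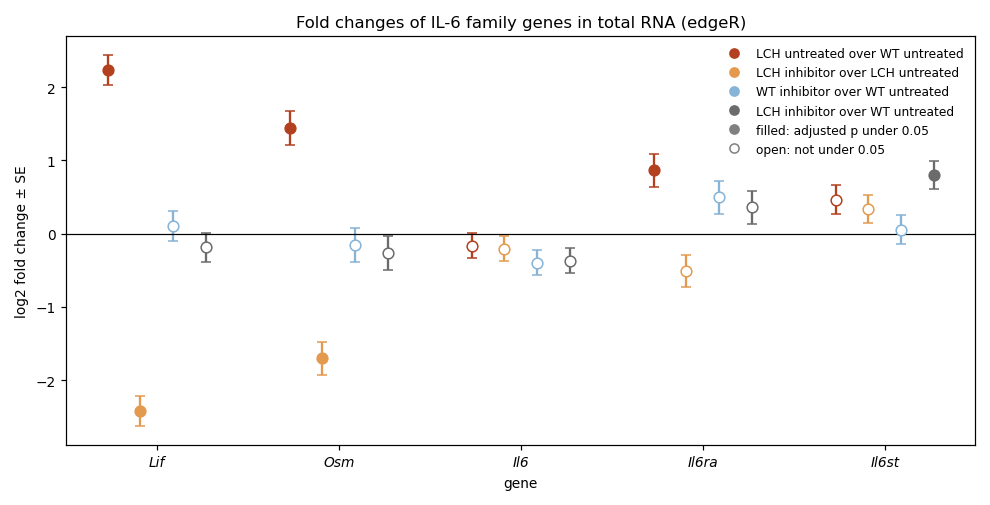
Log2 fold changes in total RNA with their SE for LCH untreated over WT untreated, LCH inhibitor over LCH untreated, WT inhibitor over WT untreated and LCH inhibitor over WT untreated; filled points have an adjusted p under 0.05. Lif (2.23 and -2.42) and Osm (1.44 and -1.70) move in opposite directions in the first pair of comparisons, and Il6 stays between -0.40 and -0.16 in all 4.

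With the pool as a block, smaller inhibitor differences were also called. In LCH cells all 5 members were called, where 17.2% of all genes were: Il6 fell by 0.20 (adjusted p = 0.017 by edgeR with the block) and Il6ra by 0.50 (adjusted p = 0.027), and Il6st rose by 0.33 (adjusted p = 0.0010) on the log2 scale. In WT cells Il6 fell by 0.40 (adjusted p = 9.8e-05) and Il6ra rose by 0.49 (adjusted p = 0.043), 2 of 5 members where 21.7% of all genes were called. The interaction was then called for 4 of 5 members against 19.7% of all genes: Lif (-2.54, adjusted p = 0.0052), Osm (-1.54, adjusted p = 5.1e-06), Il6ra (-0.99, adjusted p = 0.0045) and Il6st (0.28, adjusted p = 0.040). Every LCH pool had lower Il6ra with inhibitor (by 0.50, 0.69 and 0.31 in E, F and G on the log2 CPM scale), and every WT pool had higher Il6ra with it (0.46, 0.57 and 0.43 in A, BD and C).

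**Figure D3:**
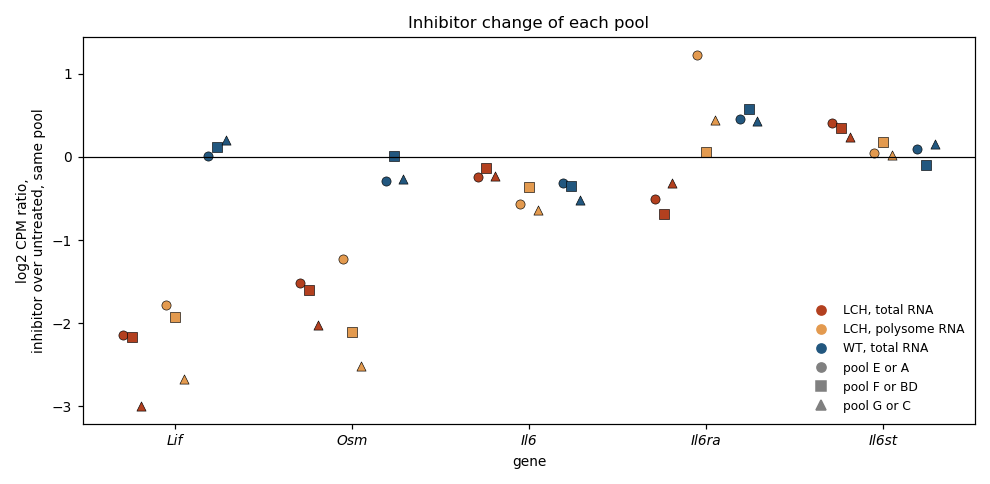
Log2 ratio of CPM with inhibitor over without it in the same pool, for LCH total RNA, LCH polysome RNA and WT total RNA; each symbol is 1 pool. All 6 LCH values of Lif lie between -3.0 and -1.78 and all 6 of Osm between -2.52 and -1.22, while the WT values of both genes lie between -0.29 and 0.20.

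In polysome RNA of LCH cells Lif and Osm were again lower with inhibitor in all 3 pools. Neither passed the main edgeR test, but both passed under some alternatives. Lif stood at 10.6, 12 and 10.2 CPM with inhibitor and 36.4, 45.3 and 65.2 CPM without it (pools E, F and G), and the groups did not overlap. Osm stood at 23.9, 23.8 and 13.5 CPM with inhibitor and 55.7, 102 and 77.2 CPM without it, also with no overlap. The log2 fold change was -2.17 for Lif (SE 0.29, adjusted p = 0.078 by edgeR) and -1.94 for Osm (SE 0.32, adjusted p = 0.14). No gene of 10757 was called in this comparison (0% by edgeR), 289 had an unadjusted p under 0.05, Lif and Osm among them (1.9e-05 and 1.2e-04), and DESeq2 called 24. With the pool as a block 0.27% of genes were called, and 2 of the 5 members were among them, Lif (-2.13, adjusted p = 0.011) and Osm (-1.94, adjusted p = 0.021). Il6 had -0.55 (SE 0.29, adjusted p = 1.00), with 189, 166 and 262 CPM with inhibitor and 281, 214 and 408 CPM without it, groups that overlapped.

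Polysome loading is the polysome level over the total RNA level of the culture with the same pool letter. Its log2 ratio was positive for Osm and negative for Il6 in all 6 LCH cultures. The tests below ask whether the fractions differ, not whether a gene differs from the median of all genes. The ratio of pool G rests on setting polysome GH against total RNA G; without that pool the calls of Osm (1.16 with inhibitor and 1.31 without it) and of Il6 (-0.93 with inhibitor) were kept. The log2 ratio of Osm was 1.34, 0.84 and 0.49 in LCH cultures E, F and G with inhibitor and 1.09, 1.38 and 1.32 without it. The median of all genes, taken after a small constant was added to both levels, lay between -0.19 and -0.02 in these cultures. The constant draws that median towards no difference, so the scales are not quite alike. All 6 Osm values were above that median. The tested log2 ratio of Osm was 0.90 with inhibitor (SE 0.21, adjusted p = 0.0032 by edgeR) and 1.26 without it (SE 0.21, adjusted p = 1.4e-04), but the call with inhibitor was lost without the inhibitor culture of pool E (0.63, adjusted p = 0.088) and without the low-count filter (0.62, adjusted p = 0.051).

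The log2 loading ratio of Il6 was -0.72, -1.27 and -0.97 in LCH cultures with inhibitor and -0.35, -1.0 and -0.22 without it. The tested value was -0.98 with inhibitor (SE 0.21, adjusted p = 0.0012 by edgeR) and -0.52 without it (SE 0.21, adjusted p = 0.066), all 6 cultures having a negative value. Without inhibitor Il6 was called under 4 of 10 alternatives, among them DESeq2 (-0.53, adjusted p = 0.0039). Il6st had -0.85 with inhibitor (SE 0.23, adjusted p = 0.0090) and -0.46 without it (SE 0.23, adjusted p = 0.16); its call was lost without pool G (-0.79, adjusted p = 0.074), without the inhibitor culture of E (-0.67, adjusted p = 0.12) or without that of G (-0.81, adjusted p = 0.058). Lif had -0.25 with inhibitor (SE 0.21, adjusted p = 0.43) and -0.42 without it (SE 0.20, adjusted p = 0.14), and Il6ra, on 21 to 151 polysome counts a library, 0.93 (SE 0.54) and -0.01 (SE 0.54) in the same order. Without inhibitor Lif was called under 3 of 10 alternatives and Il6st under 1 of 10. With inhibitor Il6ra was called under 1 of 10, DESeq2 (1.05, adjusted p = 0.044).

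With inhibitor 3 of 5 members were thus called against 30.1% of 14816 genes, and without it 1 of 5 against 29.5%, shares that do not set the members apart from other genes. The median log2 ratio of all genes in these fits was -0.24 with inhibitor and -0.26 without it. No member's loading was called as different with inhibitor: the log2 differences were 0.17 for Lif (SE 0.29), -0.37 for Osm (SE 0.29), -0.46 for Il6 (SE 0.29), 0.94 for Il6ra (SE 0.76) and -0.39 for Il6st (SE 0.33). All had an adjusted p of 1.00 by edgeR, which called 0% of genes; 205 genes and none of the members had an unadjusted p under 0.05, and DESeq2 called 3. When all 24 libraries shared a fit, none of the loading calls in LCH cells remained, with log2 ratios of 1.02 and 1.30 for Osm with and without inhibitor, and of -0.85 for Il6 and -0.72 for Il6st with inhibitor (adjusted p from 0.69 to 0.80).

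**Figure D4:**
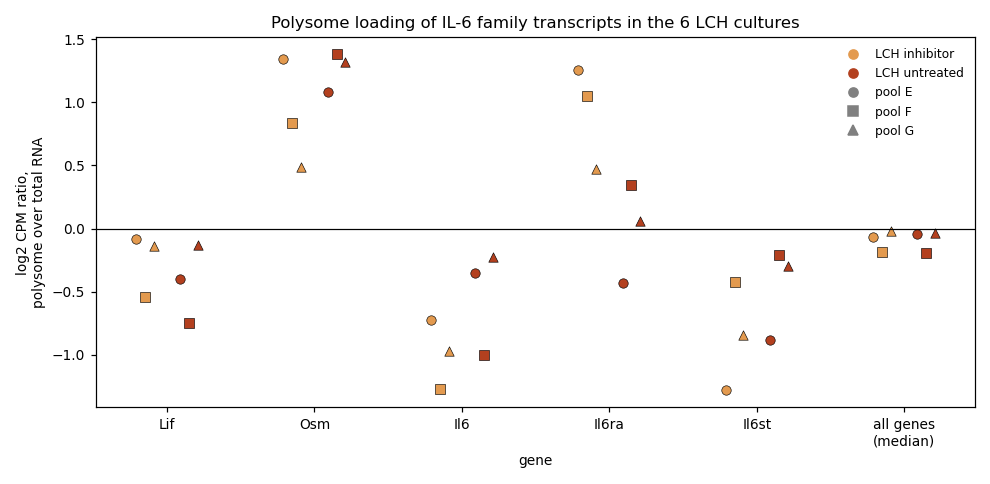
Log2 ratio of polysome over total RNA (CPM scaled over the 12 LCH libraries) in each LCH culture, with inhibitor left of without it. The median of all genes, taken after a small constant was added to both levels, is at the right. Symbols are pools. Osm lies above 0 in all 6 cultures (0.49 to 1.38), and Il6 lies below 0 in all 6 (-1.27 to -0.22).

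The genotype comparison of polysome RNA rests on few WT counts. WT polysome libraries kept 24065 to 1171449 counts outside 4 rRNA-type genes and LCH polysome libraries 3206636 to 18002038. In untreated WT pools A, BD and C the polysome counts were 0, 53 and 0 for Lif, 0, 107 and 0 for Osm, 1, 100 and 71 for Il6, 0, 67 and 11 for Il6ra and 0, 261 and 0 for Il6st. The same genes had at least 259, 586, 1224, 21 and 132 counts in every untreated LCH polysome library. No member was called by edgeR for LCH untreated against WT untreated in polysome RNA, where 22.1% of genes were called, with adjusted p from 0.14 (Il6ra) to 0.70 (Il6st), all unadjusted p above 0.05, and DESeq2 called Il6ra. No member was called for the genotype difference in loading either, where 11.8% of genes were called and Il6 (0.026) and Il6ra (0.0096) had an unadjusted p under 0.05. The loading difference of Il6ra, -3.37 and lower in LCH, had an adjusted p of 0.068, and was called by DESeq2 (-4.68, adjusted p = 0.010), without WT pool A (-3.82, adjusted p = 0.036) and without the culture block (-3.67, adjusted p = 0.0060). The median log2 difference of all genes was 1.62 in polysome RNA and 2.88 in loading. Without LCH pool G edgeR called 0 genes in either comparison.

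The other genes of the pathway are described by lists, whose counts are set against the 29.7% of all genes called for LCH untreated against WT untreated and the 0.74% called for LCH inhibitor against LCH untreated. Of 9 other ligands of the family 3 were measured and none was called in either main comparison in total RNA, LCH untreated against WT untreated or LCH inhibitor against LCH untreated. Of 6 other receptors 3 were measured, 1 was higher and 1 lower in LCH untreated, and none was called with inhibitor in LCH cells. Lifr, the receptor chain for LIF, was at 5.31, 3.75 and 3.82 CPM in LCH cells with inhibitor, 8.33, 4.34 and 5.62 CPM in LCH cells without it and 3.47, 2.88 and 2.57 CPM in untreated WT cells; the untreated groups did not overlap. Lifr rose by 1.03 in LCH untreated against WT untreated (SE 0.25, adjusted p = 0.0094 by edgeR) and had -0.51 with inhibitor in LCH cells (SE 0.24, adjusted p = 0.51). Il27ra, the IL-27 receptor chain, fell by 1.10 in LCH untreated (SE 0.28, adjusted p = 0.014). Osmr did not pass the count filter: it had 3, 3 and 39 counts in untreated LCH pools E, F and G, and 1, 0 and 3 in untreated WT pools.

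Among 10 JAK-STAT3 signalling genes 1 was higher and 2 were lower in LCH untreated than in WT untreated, and none was called with inhibitor in LCH cells. The phosphatase gene Ptpn6 rose by 0.66 (SE 0.16), the STAT3 inhibitor gene Pias3 fell by 0.82 (SE 0.19) and the kinase gene Jak1 fell by 0.30 (SE 0.07). Of 3 proteases that shed receptors, Adam17, which cleaves the IL-6 receptor, fell by 0.30 (SE 0.08) and none was called with inhibitor. These 4 genes had adjusted p from 0.0067 to 0.015 by edgeR.

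Of 16 STAT3 targets and feedback genes, 4 were higher and 1 was lower in LCH untreated than in WT untreated, a share close to that of all genes, with a median log2 fold change of 0.19 (0.02 over all genes). Socs3, the feedback inhibitor of gp130 signalling, averaged 1092 ± 165 CPM in LCH untreated and 677 ± 80.8 CPM in WT untreated libraries and rose by 0.69 (SE 0.15, adjusted p = 0.0048 by edgeR). Ier3, an immediate early gene, rose by 1.10 (SE 0.23), Cebpd, a transcription factor of the acute phase response, by 0.83 (SE 0.13) and the AP-1 subunit gene Junb by 0.48 (SE 0.09). Lrg1, an acute phase glycoprotein also made by neutrophils, fell by 2.39 (SE 0.32). The neutrophil marker sums given above were also lower in LCH, as were those of eosinophil, mast cell and basophil, and lymphocyte markers. Their part in the difference of Lrg1 was not tested.

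With inhibitor in LCH cells 2 of these 16 genes fell and none rose, with a median of -0.20 (0.01 over all genes). Ier3 averaged 40.8 ± 9.55 CPM with inhibitor and 109 ± 19.7 CPM without it and fell by 1.42 (SE 0.23, adjusted p = 0.015 by edgeR). Cebpd averaged 26.0 ± 2.06 CPM with inhibitor and 42.9 ± 3.46 CPM without it and fell by 0.72 (SE 0.13, adjusted p = 0.031). Socs3 had -0.48 (SE 0.15, adjusted p = 0.21).

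Regulators of Il6 itself were described by 2 lists. Neither list had a larger share of genotype calls than all genes. Of 19 transcription regulators 3 were higher and 1 was lower in LCH untreated than in WT untreated: Fosl1, an AP-1 subunit, rose by 1.19 (SE 0.34, adjusted p = 0.022 by edgeR), Cebpd and Junb as above, and Rela, the NF-kB subunit, fell by 0.56 (SE 0.08, adjusted p = 5.8e-04). The Fosl1 value rests on few counts, 41 to 47 a library in LCH untreated and 14 to 19 in WT untreated. With inhibitor in LCH cells Cebpd alone of the 19 was called, and Fosl1 had -1.42 (SE 0.34, adjusted p = 0.093). Of 11 regulators of Il6 mRNA 2 were higher, Zfp36 (0.78, SE 0.11, adjusted p = 5.3e-04) and Zfp36l1 (1.53, SE 0.49, adjusted p = 0.039), both coding for proteins that bind AU-rich elements and promote mRNA decay, and none was called with inhibitor in LCH cells.

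**Figure D5:**
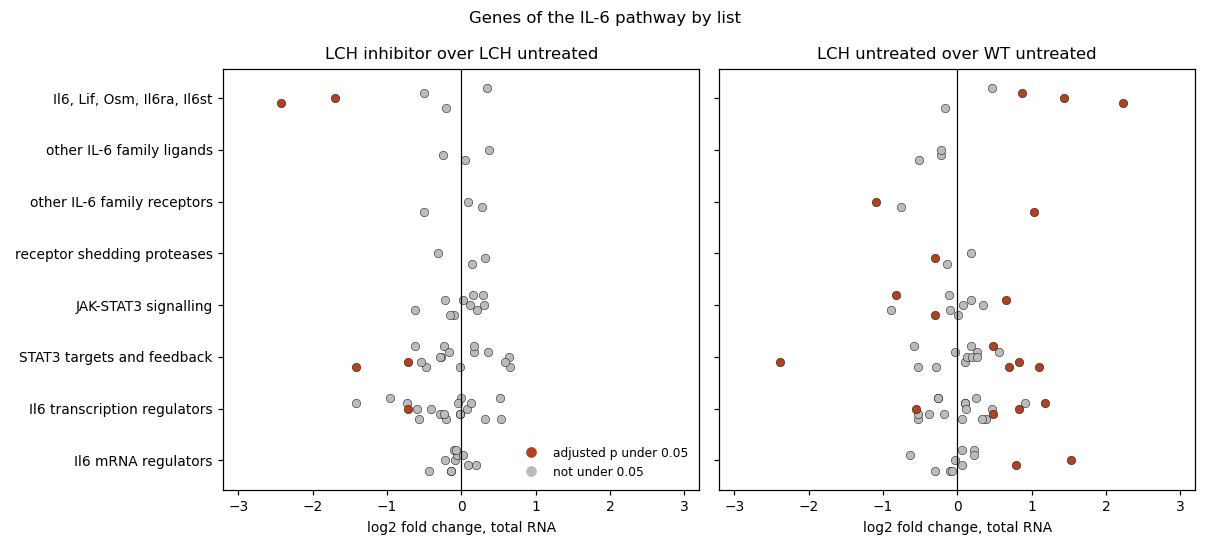
Log2 fold changes in total RNA of every measured gene of the pathway lists (1 point a gene), for LCH inhibitor over LCH untreated at the left and LCH untreated over WT untreated at the right; coloured points have an adjusted p under 0.05. Lif (-2.42), Osm (-1.70), Ier3 (-1.42) and Cebpd (-0.72) are the coloured genes at the left.

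Of 12 genes listed as a readout of ERK, the kinase downstream of BRAF, 8 were higher and 4 did not pass for LCH untreated against WT untreated, where 29.7% of all genes were called. With inhibitor in LCH cells 4 fell and 8 did not pass, where 0.74% of all genes were called, and the interaction was called for 3 of the 12, all negative as for Lif, where 0.404% of all genes were called. Dusp6, an ERK phosphatase gene, had a log2 fold change of 2.92 for genotype (SE 0.24) and -2.45 for inhibitor (SE 0.23). The cyclin gene Ccnd1 had 3.56 for genotype (SE 0.22) and -1.92 for inhibitor (SE 0.20). For LCH inhibitor against WT inhibitor, where Lif and Osm did not pass, 5 of the 12 were higher and 7 did not pass. In this comparison 20.3% of all genes were called. Ccnd1 averaged 39.3 CPM in LCH inhibitor and 12.3 CPM in WT inhibitor libraries, and Dusp6 10.1 and 8.97 CPM.

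Likeness was measured as Pearson's r of log2 CPM over the 12 total RNA libraries, among the other genes with a mean of at least 5 CPM (9018 for Il6ra and 9017 for the other members), and is a description only, since all genes share the same libraries and groups. The genes most like Lif were Prag1 (r = 0.97), Csf3, the gene of the growth factor G-CSF (0.97), Gpr84, a receptor for medium-chain fatty acids (0.96), Odc1, the first enzyme of polyamine synthesis (0.95), and Arhgef7 (0.95). Those most like Osm were Ier3 (0.98), the inflammasome sensor gene Nlrp3 (0.98), the chemokine gene Cxcl2 (0.96), Csf3 (0.95) and Pilrb2 (0.95). Csf3 was the 1 gene on both lists, and Lif and Osm had r = 0.92 with each other. Neither list shared a gene with those of the other members, which were Ms4a6d, Tiparp, G3bp2, Emp1 and Pcna for Il6 (0.93 to 0.95), Gsap, Cep250, Dna2, Smg9 and Rnf126 for Il6ra (0.92 to 0.94) and Ddr1, Slc46a3, Pmaip1 and Nars for Il6st (0.95 to 0.98).

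Lif and Osm lie next to each other on chromosome 11. The deposited table places Osm (ENSMUSG00000058755.4) at 4186420 to 4191026 and Lif (ENSMUSG00000034394.15) at 4207557 to 4222514, both on the plus strand with 16531 bases between them; the labels name the build mm9, the table names none, and these positions differ from those of GRCm38.p6. Of the measured genes within 100000 bases of Lif, Castor1 (-0.49), Tbc1d10a (-0.56) and Ccdc157 (1.03) were not called for LCH untreated against WT untreated, and Sf3a1, a splicing factor gene, rose by 0.64 (adjusted p = 0.012 by edgeR). None of these 4 was called with inhibitor in LCH cells, where their log2 fold changes were 0.07, 0.41, -0.06 and -0.15 in the same order. Il6ra (ENSMUSG00000027947.12) overlaps the gene model Gm42809, which had 12 counts over all total RNA libraries, and no other member overlaps a gene model.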

How the data were processed

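Mouse BMDC were sequenced as total and polysome RNA in 8 groups of 3 libraries. The authors deposited raw counts per gene model for 24 libraries, made with Salmon and DESeq2 per the submitters' processing notes, which give no versions; aligner settings and annotation are not given in the sources used here. The deposited log2 values are regularised log (rlog) values, per the file headers, and served as an alternative. The deposited normalized table was not used. Columns name genotype, inhibitor, fraction and a pool letter, so each was assigned to its group by name; no column was left without a group. No label says that pools came from separate mice, so p-values may measure only the spread between these samples.

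Tests used edgeR 4.0.16 under R 4.3.3 (quasi-likelihood, robust, TMM, filterByExpr with a minimum count of 10), two-sided, with Benjamini-Hochberg adjustment over all genes and a threshold of 0.05. The 12 total RNA libraries shared a fit, the 6 LCH polysome libraries another, and loading was fitted over the 12 LCH libraries with the culture as a block; genotype comparisons of polysome RNA used 12 and of loading 24 libraries. Alternatives were DESeq2 1.42.0, its size factors in edgeR, no low-count filter, limma 3.58.1 on rlog values, fits of only the compared groups, fits of all libraries, no rRNA-type genes, each library left out in turn (for loading each culture, with its total and polysome libraries together), and the pool as a block. Values of single genes were examined under these alternatives for the members only. Fits were tested on simulated data. Figures were drawn with matplotlib.

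The pool as a block was accepted because the labels repeat the biological replicate names with and without inhibitor and same-pool deviations from the group means correlated over genes by more than 0.1 in every pool: 0.524, 0.346 and 0.735 in LCH total RNA (E, F, G), 0.421, 0.372 and 0.114 in WT total RNA (A, BD, C) and 0.203, 0.241 and 0.39 in LCH polysome RNA. In LCH total RNA, however, pool E without inhibitor correlated with pool F with inhibitor at 0.37, and F without it with E with it at 0.321. There the check cannot tell pools E and F apart, so their block rests on the labels. No 2 libraries of a group agreed within counting noise. LCH polysome libraries held 9188923 to 30455139 counts, 18 to 65.1% of them on 4 rRNA-type genes, and WT polysome libraries 2017104 to 4090602, 71.4 to 99.2% on those genes.

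The members, the pathway lists, the marker lists and the named genes were chosen with earlier results of these data known. Named genes are the 5 members, every pathway list gene called for LCH untreated against WT untreated or LCH inhibitor against LCH untreated in total RNA, Lifr and Osmr, the 5 genes most correlated with each member, and Dusp6 and Ccnd1. Of the genes most correlated with Il6st, 1 is not reported here. Neighbours of Lif were added after the values were seen. CPM are not divided by transcript length, so levels are not compared between genes.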

Additional observations from a re-analysis of the deposited data

Results flagged for a closer look

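The inhibitor effect on Lif in total RNA differed between the genotypes by -2.53 on the log2 scale (LCH minus WT, SE 0.28, adjusted p = 0.0042 by edgeR's interaction term over all genes). Lif was lower with inhibitor in 3 of 3 LCH pools and at or above the untreated level in 3 of 3 WT pools. It was the 1 gene of 67 tested members and pathway genes that passed. Outside these 67, 3 of 12 ERK readout genes passed too, among them Dusp6 (-2.75, SE 0.33, adjusted p = 0.0069) and Ccnd1 (-1.89, SE 0.29, adjusted p = 0.029), so the difference is not particular to Lif.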

How the results depend on the processing

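Of 750 recomputed log2 fold changes of the members, 663 kept their direction and their side of the threshold, 25 were no longer called, 34 were newly called and 28 changed sign; none of the 28 had been called in the reported fit. The calls of Lif for genotype, inhibitor and interaction in total RNA held under every alternative run, with log2 fold changes of 1.70 to 2.37, -2.66 to -1.79 and -2.76 to -1.98. With the replicate block (the pool), the members called numbered 5 for LCH inhibitor against LCH untreated, 2 for WT inhibitor against WT untreated and 4 for the interaction in total RNA, and 2 for LCH inhibitor against LCH untreated in polysome RNA. DESeq2 called 2 members for the interaction, 2 for the inhibitor in LCH polysome RNA, 1 for genotype in polysome RNA, 3 for loading in LCH untreated and 1 for the genotype effect on loading. Without the low-count filter the numbers were 2 for the interaction, 2 for LCH polysome RNA and 4 for loading in LCH untreated. Loading in LCH untreated gave 2 members with DESeq2 size factors and 3 without rRNA-type genes. With all 24 libraries in the fit loading gave 0 members in LCH untreated and 0 in LCH inhibitor, and without the replicate block the genotype effect on loading gave 1. The rlog values gave 0 for LCH inhibitor against WT inhibitor. Without LCH pool G, a setting chosen after seeing the data, 1 member was called for the inhibitor in LCH total RNA, Lif.

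Counts over all genes that moved by more than 1.5 times were as follows. For the inhibitor in LCH total RNA 99 genes were called, 409 with DESeq2, 342 without the filter, 45 on rlog values, 2302 with the block and 33 without pool G. For the inhibitor in WT total RNA the count was 95, 468 with DESeq2, 299 without the filter, 2899 with the block and 6 in a fit of only the groups compared. For the interaction it was 54, 341 with DESeq2, 269 without the filter, 11 on rlog values, 2639 with the block and 23 without pool G. On rlog values LCH untreated against WT untreated gave 2184 (3975 in the reported fit), LCH inhibitor against WT inhibitor 1416 (2718) and LCH inhibitor against WT untreated 1778 (3426). For the inhibitor in LCH polysome RNA 0 genes became 24 with DESeq2, 36 without the filter and 29 with the block. For genotype in polysome RNA 2191 became 1076 with DESeq2, 921 without the filter, 18 on rlog values and 0 without pool G. Loading gave 17 (4367) in LCH untreated and 28 (4454) in LCH inhibitor with all 24 libraries, its inhibitor effect 3 with DESeq2, 4 without the filter and 1 without pool G (0), and its genotype effect 1069 with DESeq2, 0 with its size factors, 3845 without the replicate block and 0 without pool G (1791).

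For the loading comparisons 1 culture was left out at a time, with its total and polysome libraries together, and for all others 1 library. The count over all genes was then 20 (without LCH untreated F) to 73 for the inhibitor in LCH total RNA, 8 (without WT untreated C) to 244 (without WT untreated A) for that in WT, 7 (without WT untreated BD) to 66 for the interaction, 2371 (without WT untreated C) to 3768 for genotype in total RNA, 1470 (without WT inhibitor C) to 2368 for LCH inhibitor against WT inhibitor, 1778 (without WT untreated C) to 3321 for LCH inhibitor against WT untreated, 0 (without LCH untreated E) to 2198 for the genotype effect on loading and 1 to 32 (without LCH inhibitor F) for the inhibitor effect on loading, so the shares of all genes called are themselves uncertain. The same settings gave 1 to 2 members for the inhibitor in LCH total RNA, 1 to 2 for the interaction, 0 to 1 for LCH inhibitor against WT inhibitor, 0 to 1 for LCH inhibitor against WT untreated, 0 to 2 for genotype in polysome RNA, 1 to 3 for loading in LCH inhibitor and 0 to 1 for the genotype effect on loading. The sign changes were as follows. In LCH inhibitor against WT inhibitor the range over libraries left out was -0.086 to 0.17 for Il6, -0.31 to 0.10 for Osm and -0.30 to 0.046 for Il6ra, and without pool G Il6 had -0.087 and Osm 0.024. In WT inhibitor against WT untreated it was -0.37 to 0.038 for Osm and -0.17 to 0.24 for Il6st. In LCH polysome RNA the inhibitor difference of Il6st was -0.20 to 0.30. The loading of Il6ra in LCH untreated was -0.23 to 0.17, 0.021 with all 24 libraries and 0.023 without pool G, and the inhibitor effect on the loading of Lif was -0.044 to 0.32. The interaction of Il6st was -0.087 on rlog values. For genotype in polysome RNA Il6st was -1.52 to 10.28 (called at 10.28 alone), and 0.37 on rlog values. For the genotype effect on loading Lif was -0.026 to 11.47, -0.47 with DESeq2 and -0.29 with its size factors, and Il6st was -1.20 to 11.61, -0.50 with DESeq2, -1.02 with its size factors and -1.45 without the replicate block. The values above 10 come from leaving out WT pool BD, which leaves Lif and Il6st at 0 counts in untreated WT polysome RNA; they depend on the prior count and are no bound. For the other shifts the cause was not tested. The block changed no call beyond those given here and in the report. In WT polysome RNA, where Lif, Osm and Il6st had counts in 1 of 3 untreated libraries, the depth limits the genotype comparison of these 3 genes.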
